A study of Mus musculus with 4 samples.

Results

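The genes described here are Ciita, which encodes the class II transactivator, and 9 genes of the MHC class II pathway: Cd74, H2-Aa, H2-Ab1, H2-Eb1, H2-DMa, H2-DMb1, H2-DMb2, H2-Oa and H2-Ob. They were chosen by name, and each was read from the transcript clusters that the platform's gene table pairs with that gene alone. Of the 10 genes, 8 had 1 such cluster each, among 19938 genes measured in this way in all. H2-DMb1 and H2-DMb2 share a single cluster, whose value belongs to neither gene alone and is given as such.

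CH12.F3, a murine B lymphoma line used to study antibody class switching, was the source of the RNA hybridised to 4 whole-transcript arrays. The groups were 2 arrays of Mbd4 KO cells, which lack the DNA glycosylase Mbd4, and 2 arrays of control cells. Both groups were grown with 6% fetal calf serum and treated for 24 hours with CD40L (25% by volume), TGFb (0.2 ng/ml) and IL4 (5 ng/ml), so no array holds unstimulated cells. Nothing in the labels tells if arrays of 1 genotype stem from independent cultures or, for the knockout, from more than 1 clone. The p-values therefore set each difference against the scatter of replicate arrays, and that scatter may be technical.

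MHC class II molecules are pairs of an alpha and a beta chain that carry peptides from endocytosed proteins to the surface of B cells, dendritic cells and macrophages for recognition by CD4+ T cells. The invariant chain, encoded by Cd74, occupies the groove during assembly, the DM heterodimer exchanges its remnant for peptide, and the DO heterodimer restrains DM, mainly in B cells. Ciita does not bind DNA itself but is recruited to class II promoters by RFX, NF-Y and CREB proteins on a conserved pair of elements, the X and Y boxes, and class II transcription depends on it.

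Promoter stretches of class II genes are printed here because the X and Y boxes are where Ciita is recruited. The sequences are RefSeq's for GRCm38.p6, the C57BL/6J reference, and were not read from CH12.F3 cells. Of the 10 genes, 7 had an entry in the promoter table, which covers 250 bases before to 50 after each annotated start. Each line below spans 60 bases around the reversed CCAAT box, 5′ to 3′ on the gene's own strand. Capitals mark the motifs searched on both strands, which were a degenerate X core, a Y core (CTGATTGG) and the CCAAT box (CCAAT, or ATTGG on the gene's strand, which the Y core contains). The X core is the left run of capitals in H2-Eb1, H2-Eb2 and H2-DMb1. Only H2-Eb1 and H2-Eb2 show both the X and the Y core in the printed stretch.
H2-Aa: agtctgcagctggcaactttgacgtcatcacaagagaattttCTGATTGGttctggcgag
H2-Eb1: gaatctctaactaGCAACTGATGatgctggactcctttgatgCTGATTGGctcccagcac
H2-Eb2: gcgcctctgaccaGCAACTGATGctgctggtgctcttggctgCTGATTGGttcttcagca
H2-DMb1: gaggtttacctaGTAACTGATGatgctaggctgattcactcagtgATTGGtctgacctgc
H2-DMb2: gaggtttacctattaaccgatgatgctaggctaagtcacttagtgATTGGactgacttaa
H2-Oa: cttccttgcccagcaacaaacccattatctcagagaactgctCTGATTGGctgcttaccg
H2-Ob: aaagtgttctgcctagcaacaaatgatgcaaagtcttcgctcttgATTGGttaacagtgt

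The stretch of H2-Aa lies at chr17:34287857-34287916 on the minus strand. The others lie on the plus strand, that of H2-Eb1 at chr17:34305763-34305822, H2-Eb2 (a further class II beta gene) at chr17:34325530-34325589, H2-DMb1 at chr17:34153085-34153144, H2-DMb2 at chr17:34145114-34145173, H2-Oa at chr17:34092291-34092350 and H2-Ob at chr17:34238803-34238862. All 7 lie before the annotated start, within its nearest 145 bases. The X core began 32 bases before the reversed CCAAT box in H2-Eb1 and H2-Eb2 and 33 bases before it in H2-DMb1. In H2-Oa the only match to the X core pattern lay farther upstream, 97 bases before that box and outside the printed stretch. Whether that match is the X box of H2-Oa was not tested. Among all 32851 promoters of the table, 2.97% held the X core, 4.10% the Y core, 37.4% the CCAAT box and 0.164% both the X and the Y core. The stretches of H2-DMb1 and H2-DMb2 were identical at 51 of 60 bases. Neither annotated start of H2-DMa had an X or Y core in its window, and 1 of them had a reversed CCAAT box. A match of these letters is a description and does not show binding. Only exact matches to the patterns were searched, so a promoter without a match may still hold an X or Y box. Nor need a match be such a box.

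The 8 genes measured alone were well expressed in both groups, with values of 9.17 to 13.41 (log2) on the 4 arrays. All these values lay above the medians of the arrays over the tested clusters, which were 7.19 to 7.23. Markers of B cells, 6 of 7 measured, read 10.05 to 12.68 on all arrays. T cell markers (4 of 4 measured) read 5.14 to 7.01, and dendritic cell markers (5 of 5) 5.68 to 7.95. Macrophage markers (6 of 6) read 4.96 to 10.30 and plasma cell markers (4 of 4) 6.23 to 11.26, which reach into the B cell range. Mbd4 itself read 6.47 and 6.49 in Mbd4 KO cells, against 8.74 and 8.77 in control cells (difference -2.28, SE 0.066, limma adjusted p = 0.0002).

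Ciita read 10.80 and 10.85 in Mbd4 KO cells, against 11.03 and 10.98 in control cells (log2). Both Mbd4 KO arrays were lower than both control arrays. The means were 10.82 ± 0.035 and 11.01 ± 0.036 (SD, n = 2 each), a difference of -0.18 on the log2 scale (SE 0.068, 95% interval -0.35 to -0.016), or -11.9%. By limma the unadjusted p was 0.0364 and the adjusted p over all 21789 clusters was 0.32, so Ciita did not pass the threshold of 0.05. In RNA of whole cultures, fewer cells that express a gene and less RNA per cell cannot be told apart.

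None of the 7 class II genes measured alone passed limma's threshold either. Of all tested clusters 1.39% did, 0.431% higher and 0.955% lower in Mbd4 KO cells. At an unadjusted p under 0.05, 1 of the 7 was lower and none was higher, and 13.8% of all clusters were below that p in either direction. The median difference over the 7 was -0.060 (log2), against 0.021 over all tested clusters, and 6 of the 7 differences were below zero. The groups did not overlap in 5 of the 7, each time with the Mbd4 KO arrays lower, a pattern that 18.3% of all clusters showed. Mbd4 KO arrays were both higher in 26.7% of all clusters and in none of the 7, and the groups did not overlap in either direction in 45.0% of all clusters. These genes are known to share a regulator, so they cannot be taken as independent of each other.

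**Figure D1:**
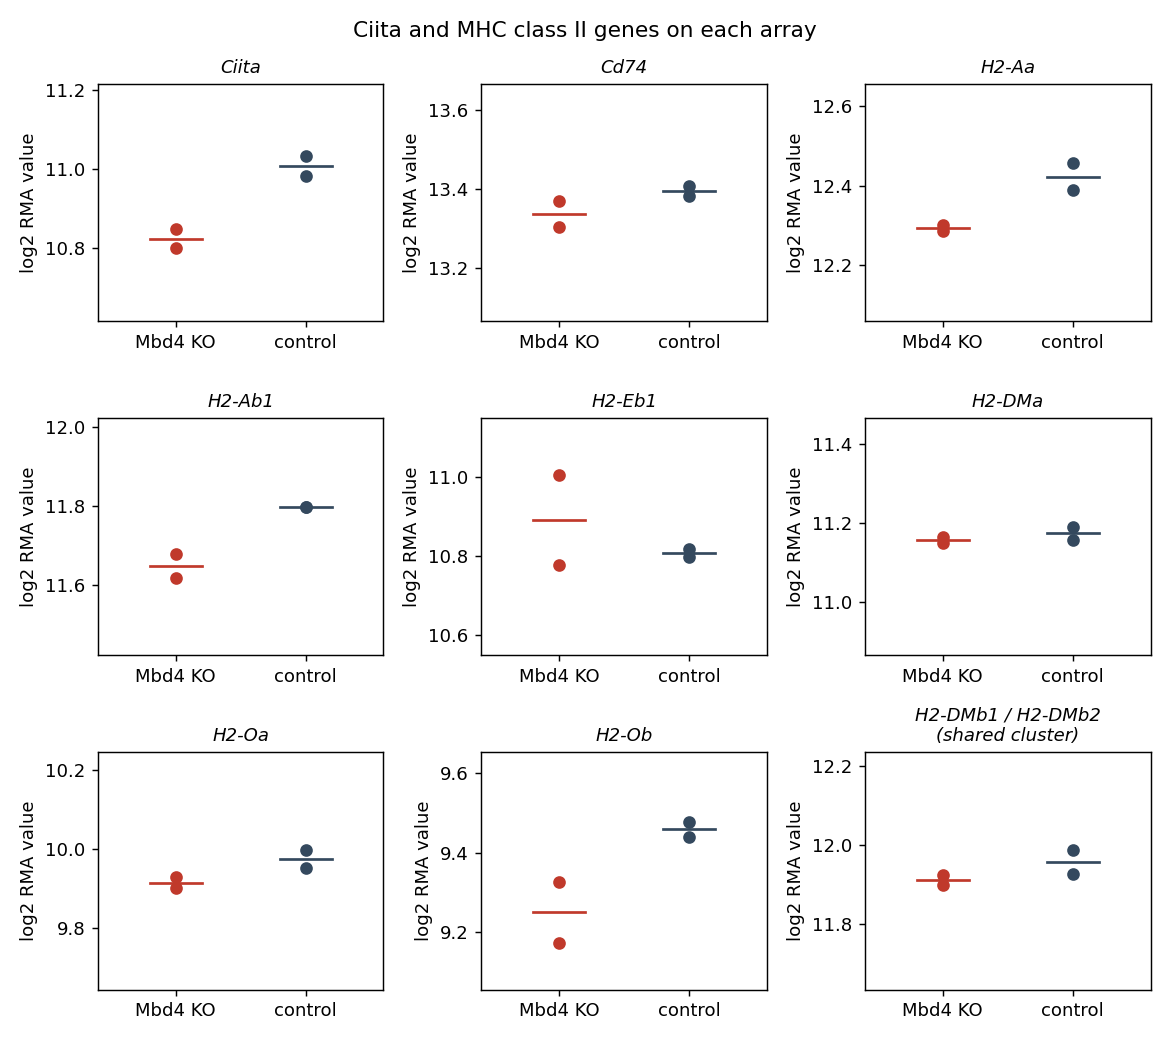
Log2 RMA value (y axis, each panel spanning 0.6 around its own mean) of Ciita, 7 class II genes and the cluster shared by H2-DMb1 and H2-DMb2, in 2 Mbd4 KO arrays (red) and 2 control arrays (dark blue). Points are arrays and bars are group means. The groups are apart in Ciita, Cd74, H2-Aa, H2-Ab1, H2-Oa, H2-Ob and the shared cluster, and overlap in H2-Eb1 and H2-DMa.

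Of the genes of the surface heterodimers, both I-A chains were lower in the Mbd4 KO arrays. H2-Ab1, the beta chain of the I-A molecule, read 11.62 and 11.68 in Mbd4 KO cells, against 11.80 and 11.80 in control cells. Its difference was -0.15 (log2, SE 0.067, 95% interval -0.31 to 0.016, limma adjusted p = 0.409). H2-Aa, the alpha chain of the same molecule, read 12.30 and 12.29 in Mbd4 KO cells, against 12.39 and 12.46 in control cells. Its difference was -0.13 (SE 0.068, interval -0.30 to 0.037, adjusted p = 0.473). Both Mbd4 KO arrays were thus below both control arrays for the 2 chains of I-A, by amounts that limma did not call.

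H2-Eb1, the beta chain of the I-E molecule, had the opposite sign. It read 10.78 and 11.00 in Mbd4 KO cells, against 10.82 and 10.80 in control cells, a difference of 0.085 (SE 0.093, interval -0.14 to 0.31, adjusted p = 0.75). One array set the sign: Mbd4 KO array 2 lay above the other 3, and without it the difference was -0.030. H2-Eb2 differed by 0.015 (adjusted p = 0.961), again with Mbd4 KO array 2 the highest of the 4 (10.40 and 10.54 in Mbd4 KO cells, against 10.43 and 10.48 in control cells). H2-Ea, the gene of the I-E alpha chain, differed by -0.081 (adjusted p = 0.654), with both Mbd4 KO arrays lower.

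Cd74, the invariant chain gene, read 13.30 and 13.37 in Mbd4 KO cells, against 13.38 and 13.41 in control cells. The difference was -0.059 (SE 0.068, interval -0.22 to 0.11, limma adjusted p = 0.763). Without Mbd4 KO array 1 it was -0.026, and without Mbd4 KO array 2 it was -0.091. The gap between the closest arrays of the 2 groups was smaller than that between the Mbd4 KO arrays.

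The peptide exchange genes had the differences nearest to zero among the 8 genes and the shared cluster. H2-DMa, the alpha chain of DM, read 11.17 and 11.15 in Mbd4 KO cells, against 11.16 and 11.19 in control cells, a difference of -0.017 (SE 0.066, interval -0.18 to 0.14, limma adjusted p = 0.947). The groups overlapped, and with 1 array left out the difference ran from -0.032 to -0.00065. The cluster that reads both DM beta chain genes, H2-DMb1 and H2-DMb2, had 11.92 and 11.90 in Mbd4 KO cells, against 11.93 and 11.99 in control cells. In a limma fit over all 35556 clusters it differed by -0.045 (SE 0.067, interval -0.23 to 0.14, adjusted p = 0.856).

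The 2 chains of DO, the inhibitor of DM, were both lower in Mbd4 KO arrays, by different amounts. H2-Ob, the beta chain, read 9.17 and 9.33 in Mbd4 KO cells, against 9.48 and 9.44 in control cells. Its difference was -0.21 (SE 0.080, interval -0.40 to -0.014), with an unadjusted p of 0.0391 and an adjusted p of 0.33 by limma. No other gene of the 8 had a lower difference, and without Mbd4 KO array 1 that of H2-Ob was -0.13. H2-Oa, the alpha chain, read 9.93 and 9.90 in Mbd4 KO cells, against 9.998 and 9.95 in control cells, a difference of -0.060 (SE 0.067, interval -0.22 to 0.10, adjusted p = 0.755), which was -0.036 without control array 1.

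**Figure D2:**
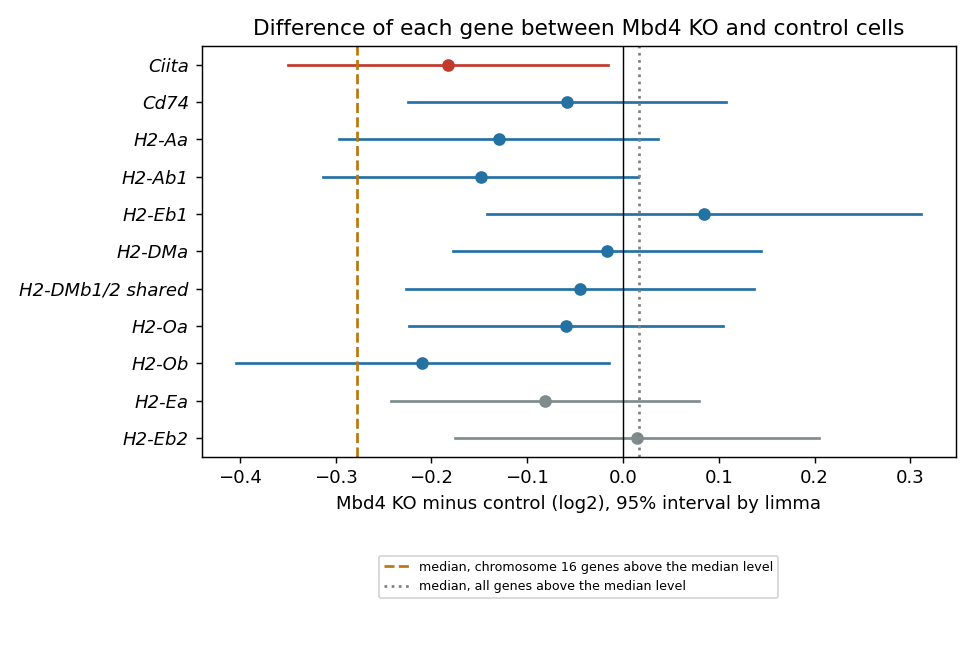
Mbd4 KO minus control (log2, x axis) for Ciita (red), its class II genes (blue) and 2 further class II genes (grey), with limma's 95% interval as a line. The dashed line is the median of chromosome 16 genes above the median level (-0.28) and the dotted line that of all such genes (0.016), and the intervals of Ciita and H2-Ob are the 2 that do not include zero.

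Whether the class II genes followed Ciita was set out array by array, as the log2 value of Ciita minus that of the other gene. Only the change of this gap between groups can be read, since different probes set its size. The gap to H2-Eb1 was 0.022 and -0.16 in Mbd4 KO cells, against 0.22 and 0.18 in control cells, and changed by -0.27. It changed by -0.17 for H2-DMa, -0.12 for Cd74, -0.12 for H2-Oa and -0.034 for H2-Ab1, in each case with no overlap of the groups. The groups overlapped for H2-Aa (-0.053) and H2-Ob (0.027). All 7 gaps use the same Ciita values, which were themselves lower in both Mbd4 KO arrays. A gene without any difference can therefore give a gap without overlap too. The share of all clusters with such a gap was not counted. Over the 7 pairs compared, the exact two-sided permutation test gave p = 0.333 for the 5 without overlap, 0.667 for H2-Aa and 1 for H2-Ob, and 0.467 at the lowest after Benjamini-Hochberg adjustment. With 2 arrays against 2 this test can give no p below 0.333.

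The distance between array profiles, each centred on its own mean of the 4 arrays, placed the class II genes at varied ranks from Ciita. Among 21788 other clusters, H2-Ab1 was the 144th nearest, H2-Ob 514th, H2-Aa 1240th, H2-Oa 2181st, Cd74 2236th, H2-DMa 4921st and H2-Eb1 13958th. The 5 nearest clusters were those of Galnt2, Tfdp1, 4930417O22Rik, G430095P16Rik and Rab10, with distances of 0.011 to 0.020 and differences of -0.19 to -0.16. None of the 5 passed limma's threshold (adjusted p = 0.302 to 0.37), and they lie on chromosomes 8, 11 and 12. Over 4 arrays in 2 groups, this distance is small for any cluster whose groups differ by a similar amount with little spread inside them.

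Ciita lies on chromosome 16, in the RefSeq gene order of GRCm38.p6, while Cd74 lies on chromosome 18 and the other class II genes on chromosome 17. The median difference of the 316 chromosome 16 genes above the median level was -0.28 (log2), and 92.1% of them were below zero. On chromosome 17 the median of 506 such genes was 0.029, with 40.7% below zero, and over all 9854 such genes it was 0.016. The value of Ciita, -0.18, lay nearer to zero than the median of those 316 genes, of which 25.9% were above it. Over all 9854 genes 90.5% were above it. Without the limit on level the order was reversed. The 648 measured chromosome 16 genes had a median of -0.11, with 69.0% below zero, and 58.3% of them were above the value of Ciita. What lies behind the chromosome 16 shift was not tested.

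Of the 10 measured neighbours of Ciita none passed, where 1.39% of all tested clusters did. Nubp1, a gene of iron-sulfur cluster assembly, differed by -0.30 (log2, limma adjusted p = 0.112), Clec16a, a gene of endosomal traffic and mitophagy, by -0.27 (0.192) and Dexi, the gene that adjoins Ciita, by -0.22 (0.24). In these 3 both Mbd4 KO arrays were lower than both control arrays, in Tekt5 both were higher, and the groups overlapped in the other 6, where 18.3% of all clusters were lower and 26.7% higher without overlap. Atf7ip2 (-0.078), Emp2 (-0.035), Tekt5 (0.12) and Tvp23a (0.089) were dim, below the array medians. Socs1, a feedback inhibitor of cytokine signalling (-0.019), and the sperm nuclear protein genes Tnp2 (0.028) and Prm3 (-0.030) lay above those medians. Among genes above the median level, the running median of 15 genes at Ciita was -0.24.

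**Figure D3:**
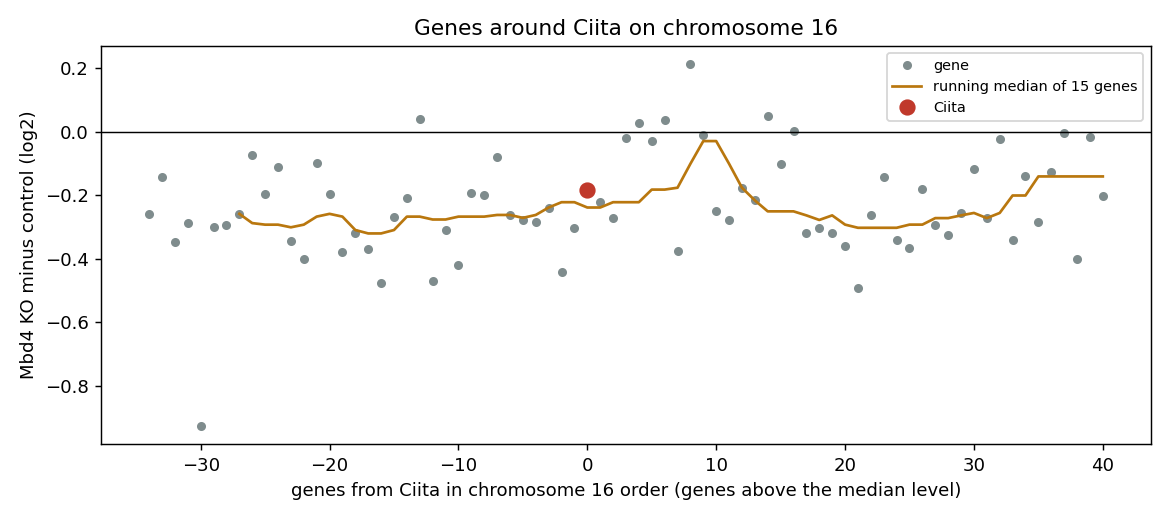
Mbd4 KO minus control (log2, y axis) for chromosome 16 genes above the median level, by the number of genes from Ciita (x axis). Grey points are genes, the line is the running median of 15 genes, and Ciita (red, -0.18) lies above that line (-0.24).

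In the class II region of chromosome 17, class II genes are interleaved with genes of the MHC class I pathway. Between H2-Oa and H2-Eb1, the outermost of the genes described here, lie Brd2, Psmb9, Tap1, Psmb8 and Tap2. None of these 5 passed, where 1.39% of all tested clusters did. The immunoproteasome subunit genes Psmb9 (-0.33, limma adjusted p = 0.115) and Psmb8 (-0.16, 0.462) and the peptide transporter gene Tap1 (-0.24, 0.245) were lower in both Mbd4 KO arrays. Tap2, the partner of Tap1 (0.12, 0.533), and Brd2, a chromatin reader gene (0.12, 0.539), were higher in both. Neighbouring genes in this region thus had differences of both signs, none of them past the threshold. Over all clusters, 18.3% were lower and 26.7% higher in both Mbd4 KO arrays than in both control arrays.

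**Figure D4:**
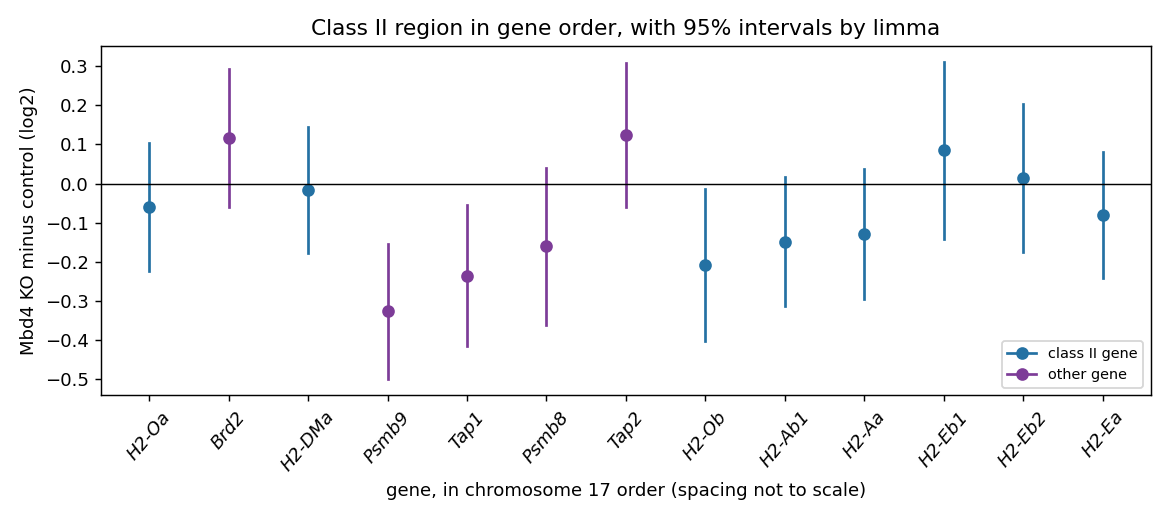
Mbd4 KO minus control (log2, y axis) with limma's 95% interval for genes of the class II region in chromosome 17 order (x axis, spacing not to scale). Class II genes (blue) span -0.21 to 0.085 and the other genes (purple) -0.33 to 0.12.

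The genes whose products assemble on the X and Y boxes with Ciita showed no call among 7 measured, where 1.39% of all tested clusters passed. Rfx5, the RFX subunit gene that contacts DNA, differed by 0.21 (log2, limma adjusted p = 0.267) and Nfya, an NF-Y subunit gene, by 0.15 (0.387), both higher in both Mbd4 KO arrays. Rfxap, another RFX subunit gene (-0.10, 0.567), and Nfyc (-0.091, 0.608) were lower in both. Of the 7, 2 were thus higher and 2 lower without overlap, where 26.7% of all clusters were higher and 18.3% lower. A second cluster of Nfyc differed by 0.051 with overlap. The median over the 7 was -0.0023, against 0.023 over all genes.

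Of the transcription factor genes that act on Ciita or in the B cell network around it, 13 of 14 were measured and 1 passed, as did 1.39% of all clusters. Bach2, a repressor of plasma cell differentiation, read 8.003 and 7.94 in Mbd4 KO cells, against 8.40 and 8.52 in control cells, and fell by 0.49 (log2) with an SE of 0.076 and a limma adjusted p of 0.0492. That call was lost with any 1 array left out (adjusted p = 0.157 to 0.241), with the robust prior (0.0521), with quantile normalization (0.0521) and over all clusters (0.2). Prdm1, the plasma cell factor that silences Ciita, differed by -0.22 (adjusted p = 0.258) and Irf2 by -0.18 (0.31). Foxo1 differed by 0.16 (0.439) and the E2A gene Tcf3 by -0.13 (0.523). Pax5 (0.042) and Spi1 (0.095), the PU.1 gene, overlapped between groups. The median of the 13 was -0.097.

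Genes of antigen processing for class II, 15 of 15 measured, had 0 calls by limma, where 1.39% of all tested clusters passed. At an unadjusted p under 0.05, which 13.8% of all clusters had, there was 1 gene. That was Ctsl, a cathepsin that cleaves invariant chain in thymic epithelium, which was dim here (6.11 and 6.26 in Mbd4 KO cells, against 5.94 and 5.99 in control cells; difference 0.22, adjusted p = 0.304). Ctsd, an aspartic protease gene, differed by 0.15 (0.442), Lamp1, a lysosomal membrane gene, by -0.11 (0.549) and Marchf1, whose product ubiquitinates class II molecules, by -0.098 (0.684). Ctss, the cathepsin that processes invariant chain in B cells, read 10.10 and 10.04 in Mbd4 KO cells, against 10.18 and 9.86 in control cells. The median of the 15 was 0.0065, with 8 above and 7 below zero.

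Among 3 genes reported elsewhere as further targets of Ciita, Btn2a2, a butyrophilin gene, read 7.42 and 7.77 in Mbd4 KO cells, against 8.02 and 8.20 in control cells. Its difference was -0.52 (log2, SE 0.13, limma unadjusted p = 0.0076, adjusted p = 0.167). Without Mbd4 KO array 1 it was -0.34, and without Mbd4 KO array 2 it was -0.69. With an intensity trend in the prior it passed (0.0251), as did 12 other genes named here that the closing section lists. Rab4b, a gene of endosomal recycling, differed by -0.20 (adjusted p = 0.337) and Plxna1, a semaphorin receptor gene, by 0.011 (0.969). Only CCAAT boxes, and neither an X nor a Y core, were found in the promoters of Btn2a2 and Rab4b. Those of H2-DMa, H2-DMb2 and H2-Ob had neither core as well, so the absence does not set Btn2a2 and Rab4b apart from class II genes.

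In the MHC class I pathway, 10 of 12 genes were measured alone and none passed, where 1.39% of all tested clusters did. Of the 10, 8 were below zero, 5 of them at an unadjusted p under 0.05, and the median was -0.19 (log2), while 2, Tap2 among them, were above zero. Over all 21789 tested clusters, 9245 were below zero, and 1401 of those had an unadjusted p under 0.05 by limma. Their median was 0.021. Nlrc5, the class I counterpart of Ciita, differed by -0.23 (log2, limma adjusted p = 0.238) in its brightest cluster, and all of its 19 clusters were below zero (-0.73 to -0.059), 4 of them past the threshold. Of all tested clusters, 0.955% passed lower in Mbd4 KO cells, and the 19 clusters all read 1 gene. B2m, the class I light chain gene, differed by -0.23 (0.232), beside Psmb9 and Tap1 above.

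**Figure D5:**
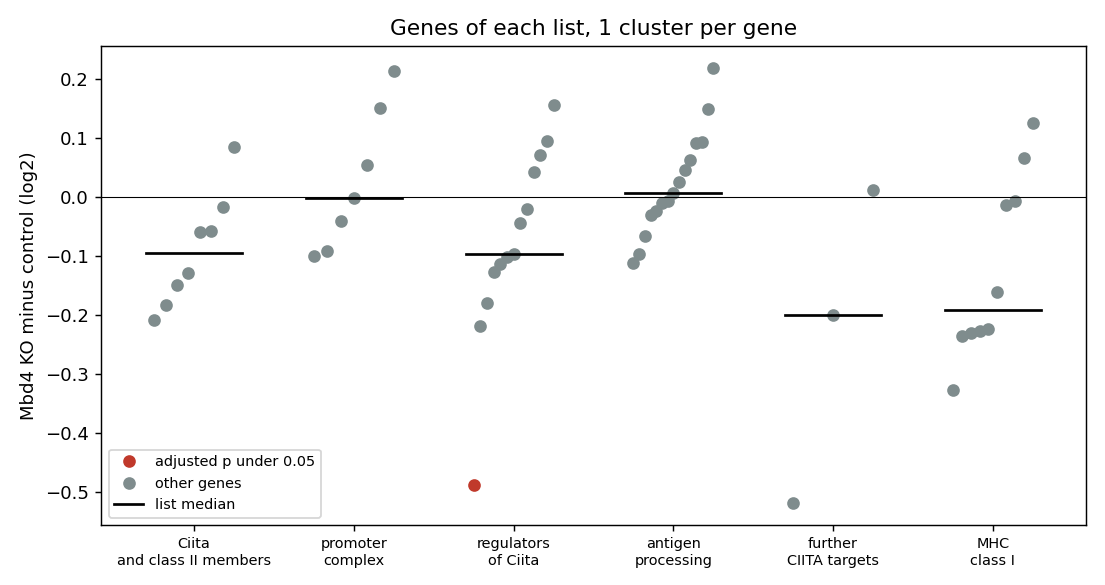
Mbd4 KO minus control (log2, y axis) for each gene of 6 lists (x axis), 1 cluster per gene, sorted within its list. Horizontal bars are list medians, and the red point, Bach2, is the 1 gene past limma's adjusted p threshold of 0.05.

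Genes used as markers of other cells that express class II genes were read beside these values. CH12.F3 is a B lymphoma line, so their values are levels of genes and not counts of such cells. The macrophage markers, 6 of 6 measured, summed (linear scale) to 1441 and 1486 in Mbd4 KO arrays, against 1761 and 1765 in control arrays. Cd68, the brightest of the 6, weighs most in this sum, and 3 of the 6 differences were above zero. Adgre1 fell by 1.06 (log2, limma adjusted p = 0.00311), a call that was lost over all clusters (0.065), and Cd68 (-0.25), Lyz2 (0.24), Fcgr1 (0.096) and Cd14 (0.089) did not pass. The dendritic cell markers summed to 531 and 542, against 569 and 571, with Itgax at -0.52 (adjusted p = 0.0592), Flt3 -0.12, Xcr1 -0.094 and Zbtb46 0.051. By level, Lyz2, Fcgr1 and Cd14 each read below the lower quartile of the same array. Cd68 read 10.04 and 10.07 in Mbd4 KO cells, against 10.30 and 10.29 in control cells, Csf1r 7.24 and 7.42, against 7.39 and 7.42, and Adgre1 6.58 and 6.67, against 7.69 and 7.68, so not all macrophage markers were dim. Csf1r, the remaining marker, differed by -0.074. The B cell markers summed to 16886 and 17554 in Mbd4 KO arrays, against 16209 and 16402 in control arrays. The plasma cell markers summed to 4409 and 4465, against 4470 and 4533, and the T cell markers to 337 and 361, against 364 and 371. Among B cell markers Cd22 differed by 0.44 (adjusted p = 0.0843), Blk by 0.31, Cd79a by -0.17 and Ms4a1 by 0.093. Plasma cell markers differed by -0.22 (Prdm1), 0.17 (Sdc1), -0.10 (Irf4) and 0.050 (Xbp1), and T cell markers by -0.19 (Cd4), -0.15 (Cd3d), 0.011 (Cd8a) and -0.0012 (Cd3e). The part of these markers in the class II values was not tested.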

How the data were processed

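The deposited values are log2 values, 1 per transcript cluster and array, made by the authors with RMA (background correction, quantile normalization of probes, summary per cluster), as named in the submitters' processing notes. The RMA software and options are not given in the sources used, and the log2 scale was read from the values. No intensities were used, so signal over background was not assessed. Of 35556 clusters, 21789 had exactly 1 symbol in the platform's table, 1621 several and 12146 none in it.

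The comparison used lmFit and eBayes of limma 3.58.1 (R 4.3.3), two-sided, with Benjamini-Hochberg adjustment over the 21789 clusters. SE values are moderated (degrees of freedom: 2 residual, 4 prior), and the number of arrays limits the precision. A gene with several clusters was represented by the brightest. The fit was tested on simulated data. Members and gene lists were chosen with earlier results of these data known. Genes named are the members, Mbd4, passing genes and the 4 largest other differences of each list, 5 measured neighbours of Ciita on each side, genes between the outermost class II members, and the 5 clusters nearest to Ciita. Pax5, Spi1, Ctss and Csf1r were named outside this rule, after their values were seen. Alternatives were leaving out each array, a replicate block, an intensity trend, a robust prior, removal of the dimmest 30%, quantile and cyclic loess normalization, all clusters, and an adjusted p of 0.1. Chromosomes and gene order came from RefSeq's GRCm38.p6. Figures were drawn with matplotlib 3.10.9.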

Additional observations from a re-analysis of the deposited data

How the results depend on the processing

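Ciita stayed below zero in all 12 alternatives (-0.21 to -0.16) and passed in none, with adjusted p between 0.0588, with an intensity trend, and 0.615. No class II gene measured alone passed in any of them. Of 96 values of the 8 genes under an alternative, 95 kept direction and call. The exception was H2-Eb1, whose differences with 1 array left out ran from -0.030 to 0.20. The same alternatives gave -0.054 to 0.084 for H2-Eb2, -0.025 to 0.046 for Plxna1, -0.11 to 0.071 for Socs1, -0.16 to 0.092 for Emp2, -0.087 to 0.027 for Prm3, -0.055 to 0.23 for Cd14, -0.11 to 0.11 for Cd3e, -0.28 to 0.094 for Xcr1 and -0.093 to 0.11 for Cd8a, each on both sides of zero. Among differences that kept their sign, those of Psmb8 (-0.24 to -0.079), Tcf3 (-0.19 to -0.063), Marchf1 (-0.19 to -0.0058) and Sdc1 (0.026 to 0.31) moved by over 1.5 times, as did others. Cd8a was also below zero with quantile (-0.0060) and cyclic loess normalization (-0.014). The number of clusters called, 302, was 65 to 75 with 1 array left out, where fewer arrays enter, 1121 with an intensity trend, 640 without the dimmest 30%, 22 over all clusters and 593 at an adjusted p of 0.1. The cause was not tested for the trend, the filter and the fit over all clusters. With the trend, calls were gained by B2m, Blk, Btn2a2, Cd22, Cd68, Clec16a, Dexi, Itgax, Nlrc5, Nubp1, Psmb9, Rab10 and Tfdp1 (adjusted p = 0.00159 to 0.0452). Without the dimmest 30%, calls were gained by Blk, Cd22, Itgax, Nubp1 and Psmb9. Adgre1 did not pass over all clusters (0.065). The labels do not say what a shared replicate number stands for. Deviations of same-numbered arrays from their group means correlated at 0.083 across clusters, and a replicate block gave 159 calls, an adjusted p of 0.096 for Bach2 (0.0492 without it) and an adjusted p of 0.332 for Ciita.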

Other observations

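H2-Ea, the gene of the I-E alpha chain, read 13.42 and 13.40 (log2) in Mbd4 KO cells, against 13.51 and 13.48 in control cells. RefSeq's GRCm38.p6, made from C57BL/6J mice, annotates this gene as a transcribed pseudogene, since C57BL/6 mice carry a promoter deletion that silences it. As background, the CH12 lymphoma arose in mice of another H-2 haplotype, in which I-E is expressed.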
